A study of Mus musculus with 6 samples.

Results

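The DYRK and HIPK kinases are 2 neighbouring families of protein kinases, and the 8 genes described here are the kinase gene targeted in these embryos, Dyrk1a, with its relatives Dyrk1b, Dyrk2, Dyrk3, Dyrk4, Hipk1, Hipk2 and Hipk3. They were chosen by name, for their kinship with the targeted gene, from the 33084 genes counted, and all 8 were matched by Ensembl identifier. Forebrains of mouse embryos at 15.5 days post coitum were measured by RNA sequencing, with 3 wild-type libraries (wt, called controls) and 3 mutant libraries (Dyrk1a<DlxCre/+>). Cre recombinase inactivates Dyrk1a in the mutants only in cells where the Dlx5 gene is or was active, and in cells descended from them. Dlx5 is active in the ventral zone that gives rise to GABAergic neurons, and the + of the genotype stands for a wild-type allele. Other cells of the forebrain are not targeted, and whole forebrain was sequenced, so fewer cells of a type and less RNA per cell cannot be told apart. The labels do not say whether the controls carry the Cre driver or the conditional allele, or whether embryos shared a litter. The p-values therefore measure the spread between these samples, which may be technical.

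DYRK kinases phosphorylate a tyrosine of their own activation loop while they are being made and from then on act on serine and threonine of other proteins. DYRK1A is known for its dosage sensitivity in brain development, where it acts on cell cycle exit, neuronal differentiation, splicing and transcription. HIPK kinases, the homeodomain-interacting protein kinases, are mostly nuclear, bind transcription factors and corepressors, and take part in p53, Wnt and apoptosis signalling.

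The stretch of coding sequence that encodes the activation loop is shown because it sets the Dyrk genes apart from the 3 Hipk genes of the set. Each line gives 30 bases of the longest annotated coding transcript that holds the stretch, from the GENCODE M21 transcripts on GRCm38, with the tyrosine codons in capitals.
Dyrk1a: cagaggataTACcagTATattcagagtcgc
Dyrk1b: cagcggatcTACcagTATatccagagccgc
Dyrk2: caacgcgtcTACacgTACatccagtcacgc
Dyrk3: cagaagcttTACacgTATatccagtcccgc
Dyrk4: cagaaagtgTATacgTACatccaaagtcgt
Hipk1: gccgtgtgttcaaccTACctgcaatcacgc
Hipk2: gctgtctgctctacgTACttgcaatccaga
Hipk3: actgtttgctcaacgTATcttcaatctcgc
The 5 Dyrk genes hold 2 tyrosine codons with 1 codon between them, which in Dyrk1a are codons 319 and 321, and the 3 Hipk genes hold 1, which in Hipk2 is codon 361. Dyrk1b shares 26 of the 30 bases with Dyrk1a. Dyrk3, Dyrk4 and Dyrk2 share 21, 19 and 18, and Hipk3, Hipk1 and Hipk2 share 13, 10 and 8. Hipk4, a HIPK gene outside the set, differs from these 3: it holds 2 tyrosine codons, 170 and 175, and shares 15 bases with Dyrk1a.

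The libraries held between 24646616 and 38315004 counts. Values below are counts-per-million (CPM) scaled by edgeR's TMM factors, and log2 fold changes are mutant over control. Of the 8 genes, 7 passed the filter on low counts and Dyrk4 did not. Forebrain identity was present in each library, with the GABAergic genes Gad1 and Gad2 at 86.6 CPM or more, and the hindbrain and spinal cord gene Hoxb4 at 0.105 CPM or less. The replicate 3 libraries of both genotypes stood apart: the summed level of 10 progenitor markers reached 2210 CPM in the control and 2339 CPM in the mutant of that number, against 1409 to 1599 CPM in the other 4 libraries. Hbb-y, a globin of embryonic red cells, was at 321 and 322 CPM in these 2 libraries and at 42.5 CPM or less in the others. The globins Hba-x and Hbb-bh1 were also highest in these 2 libraries. Alas2, from the same group of red-cell markers, went the other way, at 16.5 and 19.1 CPM against 22.4 to 24.6 CPM.

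Of the 7 tested kinase genes, 0 passed the threshold in either direction, in a comparison where 0% of all 19616 tested genes were called higher and 0% lower (edgeR's quasi-likelihood test, Benjamini-Hochberg adjusted p under 0.05). All 7 log2 fold changes lay at or just below 0, from -0.14 for Hipk1 to -0.0024 for Dyrk1b, with a median of -0.015, and Dyrk1b changed sign under DESeq2's size factors (0.0013). With each library's trend on GC content and transcript length removed, Dyrk1a, Dyrk2 and Hipk3 lay above 0 instead, by 0.031 or less. Over all tested genes 52.5% lay below 0 and the median was -0.0079. An unadjusted p under 0.05 was reached by 0 of the 7 genes and by 376 of all tested genes, or 1.92%. DESeq2 and limma-voom called 0 genes as well, with 261 and 393 at an unadjusted p under 0.05. Groups that did not overlap were found in 1 of the 7 genes, Hipk1, with the mutants below, where 3.7% of all tested genes had every mutant below every control and 3.19% every mutant above.

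**Figure D1:**
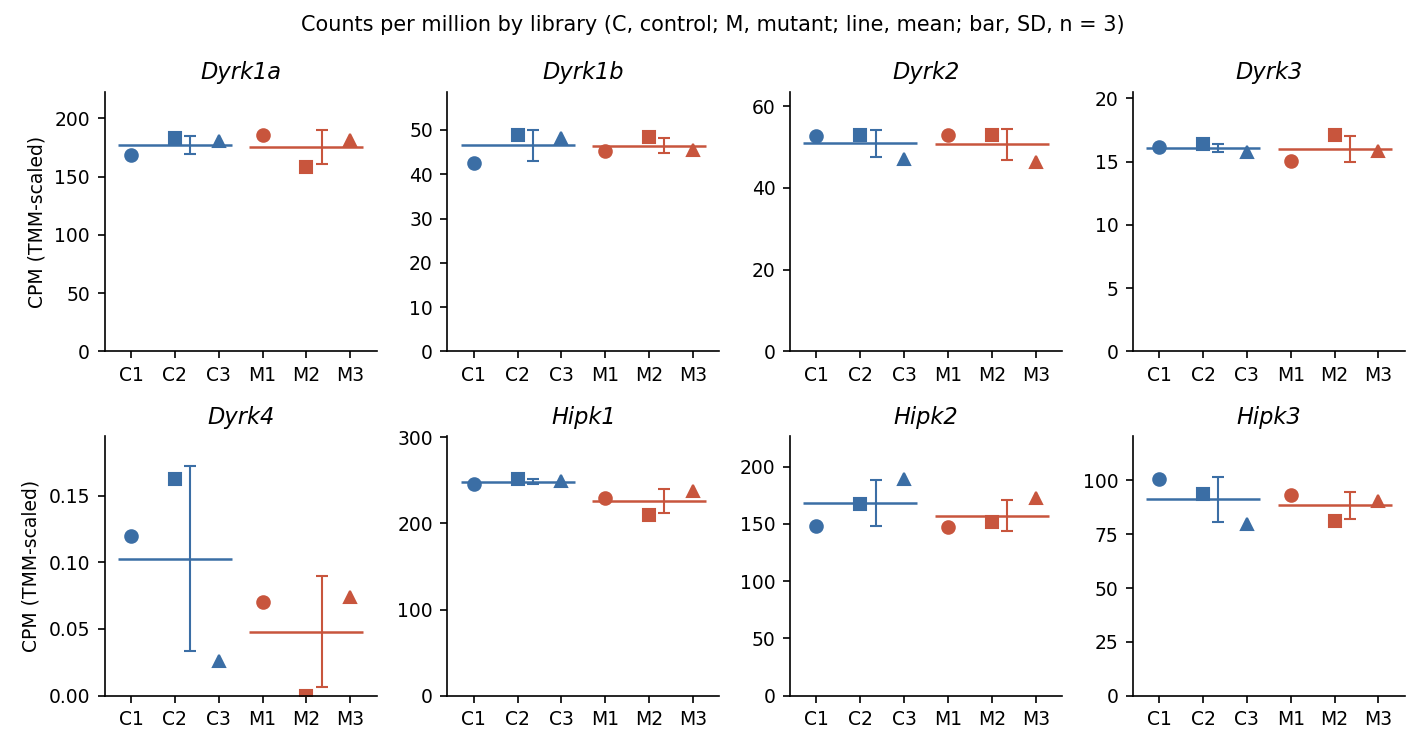
TMM-scaled counts-per-million (vertical axes, starting at 0) of the 8 kinase genes in each library, with controls C1 to C3 in blue and mutants M1 to M3 in red. Horizontal lines are group means and bars are SD (n = 3). The groups overlap in each panel except Hipk1, where the mutants sit between 210 and 237 CPM and the controls between 246 and 251 CPM.

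Dyrk1a, the targeted gene (ENSMUSG00000022897, GRCm38 chromosome 16, 94570010 to 94695517, forward strand), was at 169, 183 and 180 CPM in the 3 controls and at 186, 159 and 182 CPM in the 3 mutants. Both the highest and the lowest library were mutants, and the groups overlapped. The log2 fold change was -0.015 with a standard error of 0.091 (edgeR's quasi-likelihood test, adjusted p = 0.9999), and its 95% interval extended from -14.3% to 14.2%. A two-sided exact permutation test gave p = 0.90, where 0.10 is the smallest p that 20 assignments allow. Without mutant replicate 2, the lowest library, the log2 fold change was 0.052. The counts cover all 8251 exon bases of the gene, so they do not single out the inactivated part and cannot check the genotype labels.

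Dyrk1b, the closest relative of Dyrk1a and a kinase that holds cells in quiescence, lies on chromosome 7 (28179469 to 28187294, forward strand). It was at 42.5, 48.8 and 48.2 CPM in controls and at 45.3, 48.4 and 45.5 CPM in mutants. The mutants lay inside the range of the controls. The means were 46.5 ± 3.46 and 46.4 ± 1.74 CPM (SD, n = 3 each), and the 95% interval of the difference ran from -13.4% to 15.1%. Dyrk1b has the highest GC content of the family, 62.8% in its longest transcript. With the trend on GC content and transcript length removed, its log2 fold change was -0.21 (unadjusted p = 0.0262 and adjusted p = 0.9998, edgeR's quasi-likelihood test). With the replicate block added to that fit it was -0.21 as well (unadjusted p = 0.00654 and adjusted p = 0.863, edgeR's quasi-likelihood test), the smallest unadjusted p of any member in any fit run. Neither value passed the threshold.

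Per exon length, Dyrk1b stood below Dyrk1a in 6 of 6 libraries. Its level was 0.772, 0.817 and 0.819 of that of Dyrk1a in the 3 controls and 0.748, 0.935 and 0.767 in the 3 mutants, so that the mutants lay on both sides of the controls. The mean ratio was 0.803 ± 0.0265 in controls and 0.816 ± 0.103 in mutants (SD, n = 3 each). The highest ratio, in mutant replicate 2, fell in the library with the lowest Dyrk1a.

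Dyrk2 and Dyrk3 belong to the second branch of the DYRK family. Dyrk2 (chromosome 10, 118855603 to 118870209, reverse strand), a kinase that serves as a scaffold of a ubiquitin ligase, was at 52.7, 52.9 and 47.1 CPM in controls and at 52.8, 52.8 and 46.2 CPM in mutants. The groups overlapped, and the low libraries were the replicate 3 libraries of both genotypes. The difference between genotypes had a 95% interval from -14.3% to 15.6%.

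Dyrk3 (chromosome 1, 131127455 to 131138340, reverse strand), whose kinase dissolves stress granules and other condensates, was at 16.2, 16.4 and 15.7 CPM in controls and at 15.05, 17.1 and 15.8 CPM in mutants. The mutants enclosed the controls on both sides. Its controls had a coefficient of variation of 2.03%, less than the 4.60% that counting alone gives at its mean count over all 6 libraries. The interval of the difference ran from -15.9% to 17.4%.

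Dyrk4, a kinase best known from the testis (chromosome 6, 126876020 to 126921839, reverse strand), was close to absent from the counts. It had 4, 4 and 1 counts in the controls and 2, 0 and 2 in the mutants. The summed 9 control counts amounted to 0.0938 CPM (exact Poisson 95% interval 0.0429 to 0.178) and the 4 mutant counts to 0.0494 CPM (0.0135 to 0.127). These intervals cover counting error only and they overlap. The count of 0 in mutant replicate 2 allows a level of up to 0.118 CPM by a limit of 3 counts, and the exact two-sided Poisson interval of that count ends at 0.145 CPM. No difference between genotypes was resolved at these counts, and a small or moderate one would not have shown.

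Hipk1, which binds p53 and homeodomain proteins, lies on chromosome 3 (103739815 to 103791563, reverse strand). It was at 246, 251 and 249 CPM in controls and at 230, 210 and 237 CPM in mutants. Each mutant lay below each control. The means were 249 ± 2.80 and 226 ± 14.0 CPM (SD, n = 3 each). This gave a log2 fold change of -0.14 with a standard error of 0.081 (adjusted p = 0.9999, edgeR's quasi-likelihood test). The 95% interval ran from -20.1% to 3.21%, and a two-sided exact permutation test gave p = 0.10, the smallest it allows. The value was below 0 in each of 18 alternative fits, from -0.17 to -0.090, and none of them passed the threshold. Nearest to 0 was the fit without mutant replicate 2, the lowest library, a change of more than 1.5 times in the value. With the GC content and length trend removed the value was -0.093.

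Relative to Dyrk1a in the same library and per exon length, Hipk1 stood at 1.10, 1.04 and 1.05 in controls and at 0.938, 1.00 and 0.987 in mutants. The ratio was above 1 in 3 of 3 controls and also in mutant replicate 2, at 1.003. The groups did not overlap, and no share over all genes is given for such a ratio. This ratio uses the same Hipk1 values as the comparison above and is a description. The exons of Hipk1 overlap the antisense gene Gm15886 over 729 bases, 6.68% of their length, and Gm15886 itself was at 0.0791 CPM or less in each library.

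Hipk2, a kinase of p53 signalling and of Wnt and TGF-beta responses (chromosome 6, 38694390 to 38876165, reverse strand), was at 148, 167 and 189 CPM in controls and at 147, 151 and 173 CPM in mutants. In both genotypes the replicate 3 library was the highest. The log2 fold change was -0.097 with a 95% interval from -21.5% to 11.4% (adjusted p = 0.9999, edgeR's quasi-likelihood test). It depended on single libraries, at 0.0035 without control replicate 3 and -0.18 without control replicate 1.

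Hipk3 (chromosome 2, 104426481 to 104494446, reverse strand), a further member of the branch that regulates apoptosis signalling, was at 100, 93.5 and 79.9 CPM in controls and at 93.4, 81.1 and 90.5 CPM in mutants. The mutants lay within the range of the controls. The log2 fold change was -0.047 with an interval from -18.2% to 14.5%. It was 0.027 without control replicate 1 and -0.15 with both replicate 3 libraries left out. Hipk4, the remaining gene of the HIPK branch and no member of the set, was scarce at 1.05, 1.58 and 2.40 CPM in controls and 1.02, 1.22 and 1.55 CPM in mutants. Its log2 fold change was -0.42 with a standard error of 0.33 (adjusted p = 0.9999, edgeR's quasi-likelihood test).

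**Figure D2:**
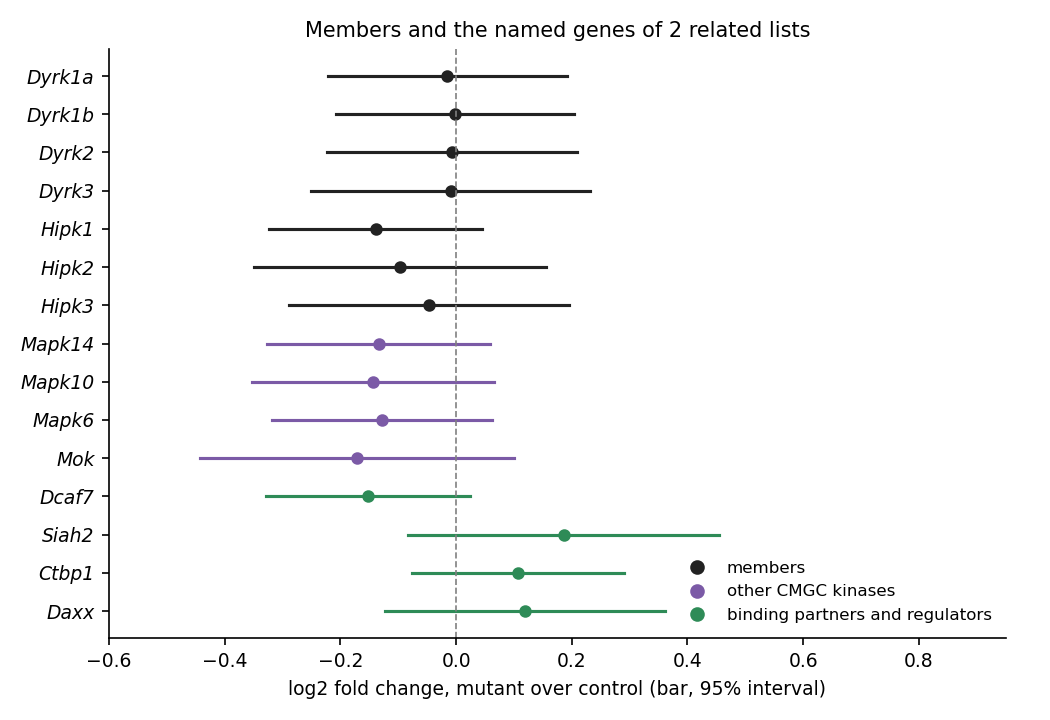
Log2 fold changes, mutant over control (horizontal axis), with 95% intervals from edgeR's quasi-likelihood fit for the 7 tested kinase genes (black) and for 4 genes from each of 2 lists of related genes, other CMGC kinases and binding partners (coloured). Each interval crosses 0, and the widest among the members is that of Hipk2, from -0.35 to 0.16.

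Levels of different genes were compared per kilobase of exon, as TMM-scaled CPM divided by the length of the union of a gene's exons. On that scale Hipk1 and Dyrk1a stood highest, at 21.7 ± 1.41 and 21.4 ± 1.27 (SD, n = 6 libraries), and their ranges overlapped. Hipk1 was above Dyrk1a in 4 of 6 libraries, and with the longest transcript in place of the exon union Dyrk1a came first. Hipk2 followed at 18.4 ± 1.88 and Dyrk1b at 17.2 ± 0.909. Their ranges overlapped with each other, and that of Hipk2 with that of Dyrk1a, although Dyrk1a was above Hipk2 in 6 of 6 libraries. No neighbours among the 4 leading genes were therefore separated by their ranges.

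Below them each step was clear of the spread. Hipk3 at 11.2 ± 0.99, Dyrk2 at 8.12 ± 0.51 and Dyrk3 at 5.05 ± 0.216 (SD, n = 6) did not overlap with each other or with the leading genes, and Dyrk4 was at 0.0303. Dyrk1a made up 20.7% of the summed level of the 8 genes per exon length, between 19.7% and 22.1% in single libraries. The 3 Hipk genes together ranged from 46.6 to 54.2 CPM per kilobase and the other 4 Dyrk genes from 29.3 to 31.8. Among all tested genes, 89.0% had a lower level per exon length than Dyrk1a, 85.1% than Dyrk1b and 53.7% than Dyrk3.

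**Figure D3:**
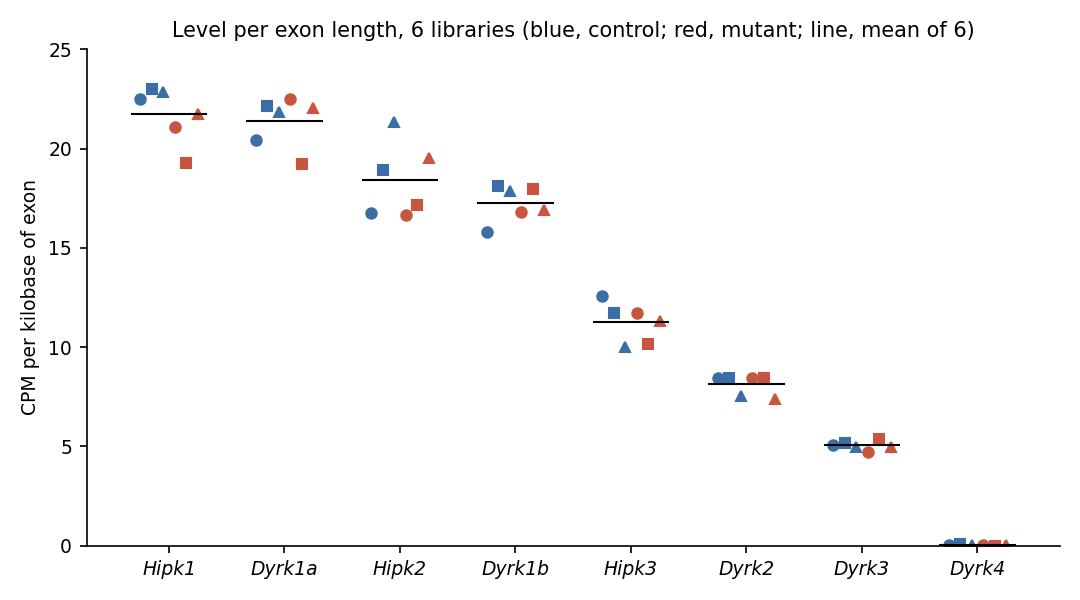
Level of each kinase gene in CPM per kilobase of exon (vertical axis, starting at 0), with 1 point per library (blue, control; red, mutant) and a line at the mean of 6 libraries. The 4 genes on the left overlap with their neighbours, and from Hipk3 (10.0 to 12.6) to Dyrk4 (at most 0.0651) the ranges are separate.

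The spread between libraries differed among the kinase genes. The log2 distance between the highest and the lowest library was 0.18 for Dyrk3, 0.19 for Dyrk2, 0.20 for Dyrk1b, 0.23 for Dyrk1a and 0.26 for Hipk1. Hipk3 and Hipk2 had the widest spread of the 7 tested genes, at 0.33 and 0.36. The median over 12793 tested genes of at least 5 CPM was 0.37, and the share of these genes with a smaller distance was 10.3% for Dyrk3, 18.5% for Dyrk1a, 24.7% for Hipk1, 41.4% for Hipk3 and 47.8% for Hipk2. Dyrk4, with 4 counts or fewer per library, was at 1.63.

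Both replicate 3 libraries were rich in progenitor markers. In them 2 of the 7 tested members lay outside the other 4 libraries, Hipk2 above and Dyrk2 below. Such a position was common among all tested genes, at 17.3% above and 17.1% below. Hipk2 was higher in replicate 3 than in the mean of replicates 1 and 2 by 0.26 log2 units in controls and 0.21 in mutants, and both replicate 3 libraries lay above the other 4. Of all tested genes, 17.3% had this pattern. Dyrk2 had the opposite one, at -0.16 in controls and -0.19 in mutants, shared by 17.1% of all tested genes. Dyrk1a was at 0.037 and 0.084 on the same scale. The part of cell composition in these differences was not tested.

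**Figure D4:**
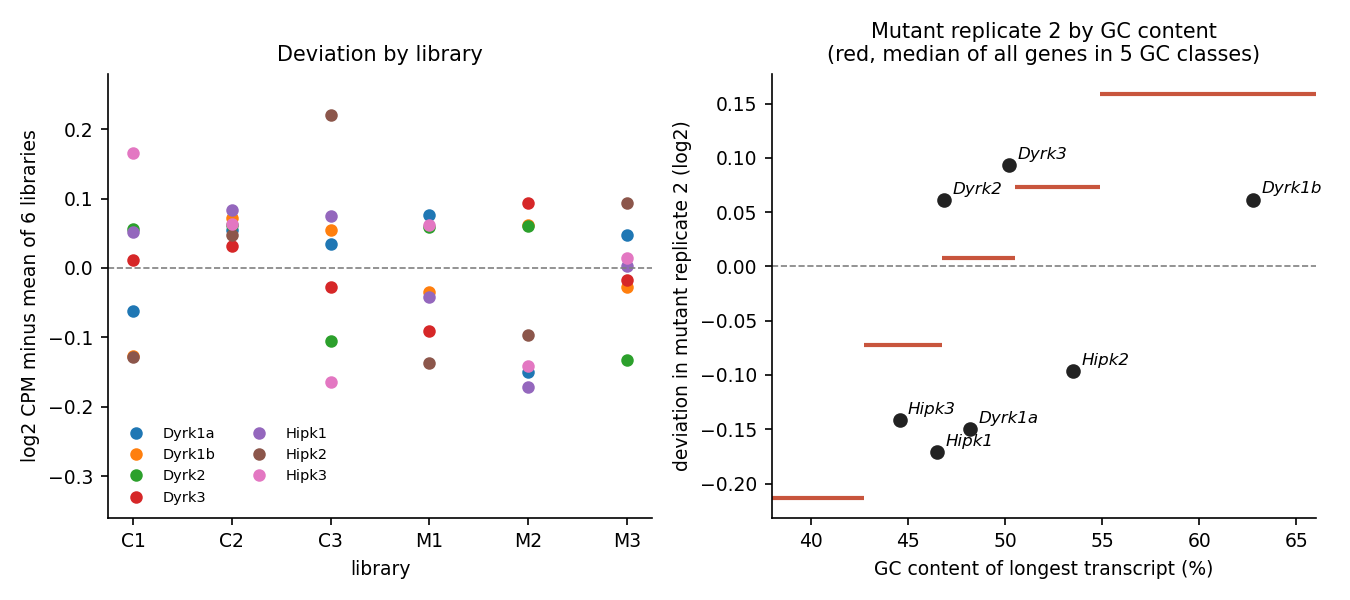
Left, log2 CPM of each tested kinase gene minus its mean over the 6 libraries (C, control; M, mutant). Right, the deviation in mutant replicate 2 against the GC content of the longest transcript, with red lines at the median of all genes in 5 GC classes, which rise from -0.21 to 0.16. Dyrk1a, Hipk1, Hipk2 and Hipk3 lie between -0.17 and -0.096 in that library, and Dyrk1b, Dyrk2 and Dyrk3 between 0.061 and 0.093.

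In mutant replicate 2 the kinase genes fell into 2 sets. Hipk1, Dyrk1a, Hipk3 and Hipk2 lay at -0.17, -0.15, -0.14 and -0.096 log2 units from their own mean over libraries, and Dyrk3, Dyrk1b and Dyrk2 at 0.093, 0.061 and 0.061. The first 4 are the genes with the longest exon unions, 7987 bases or more, against 6251 bases or fewer in the others. By longest transcript this order does not hold, as Dyrk1a has 5759 bases and Dyrk2 has 6129. The split by length was seen in 1 library, and a part of length in it was not tested. In the same library all tested genes shifted with GC content, from a median of -0.21 in the class of lowest GC content to 0.16 in the class of highest. The part of this shift in the values of single members was not tested beyond the fits with the trend removed, which gave Dyrk1a a log2 fold change of 0.013.

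Among 12793 tested genes of at least 5 CPM, Nlk, Mest, Tmem163 and Antxr1 were among the 5 whose profile over the 6 libraries lay nearest to that of Dyrk1a. Likeness was the root mean square distance of log2 CPM, each gene centred on its own mean. The distance was 0.022 for Nlk, a kinase of the same wider group, and 0.026 for Antxr1, against a median of 0.15 over all these genes. Nlk was at 101, 107 and 104 CPM in controls and at 106, 93.7 and 107 CPM in mutants, so mutant replicate 2 was its lowest library as it was for Dyrk1a. Hipk1 was the nearest member, at 0.073, with 5.13% of genes nearer. Dyrk1b was at 0.11 with 21.7% nearer, and Dyrk2 was the farthest, at 0.14 with 41.9% nearer.

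The wider CMGC group of kinases, which holds the CDK, MAPK, GSK3, CLK and SRPK families, lay evenly around 0. Of 50 tested genes outside the 8 members, 27 lay above 0 and 23 below with a median of 0.014, and 0 passed the threshold (edgeR's quasi-likelihood test). The smallest p belonged to the MAP kinase genes Mapk14, Mapk10 and Mapk6 and to Mok, a kinase gene of cilia, at -0.13, -0.14, -0.13 and -0.17 log2 units. In 0 of the 50 genes did the groups separate, against 6.89% of all tested genes.

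Proteins that bind or regulate these kinases formed the next list. Of 19 tested genes, 6 lay above 0 and 13 below with a median of -0.052, and 0 passed the threshold (edgeR's quasi-likelihood test). Every mutant lay above every control in 1 of the 19 genes and below in 1, against 3.19% and 3.7% of all tested genes. The smallest p was that of Dcaf7, which encodes the WD40 adaptor that binds DYRK1A, DYRK1B and HIPK2. Dcaf7 was at 334, 310 and 312 CPM in controls and at 278, 287 and 294 CPM in mutants. Each mutant lay below each control, with a log2 fold change of -0.15 and a standard error of 0.078 (adjusted p = 0.9999, edgeR's quasi-likelihood test).

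Siah2, a ubiquitin ligase gene whose product targets HIPK2, was at 9.53, 9.16 and 9.41 CPM in controls and at 10.7, 10.0 and 11.3 CPM in mutants. Here each mutant lay above each control, as in 3.19% of all tested genes, with a log2 fold change of 0.19 and a standard error of 0.12. The corepressor gene Ctbp1, whose product HIPK2 phosphorylates, and Daxx, which encodes a nuclear partner of HIPK1 and HIPK2, were at 0.11 and 0.12, with overlapping groups. None of these genes passed the threshold.

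Of 40 tested genes for proteins reported as substrates, 17 lay above 0 and 23 below with a median of -0.028, and 0 passed the threshold (edgeR's quasi-likelihood test). Dpysl2, a gene of axon growth, was at 1178, 1387 and 1113 CPM in controls and at 1176, 1127 and 1020 CPM in mutants. The groups overlapped, and the log2 fold change was -0.15 with a standard error of 0.10. Foxo1, a forkhead transcription factor gene, was at -0.20 with a standard error of 0.16, again with overlapping groups.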

How the data were processed

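The values deposited by the authors are unnormalized HTSeq gene counts for each of the 6 libraries. Per the submitters' processing notes and the design text, reads were made with bcl2fastq 2.17.1.14, aligned with HISAT2 to GRCm38 release 93, handled with SAMtools 1.9 and counted with HTSeq 0.9.1. The kit marked strand, but whether counting used strand is not given in these sources. Symbols, exon lengths, GC content and coding stretches came from GENCODE M21 on GRCm38, which matched 32888 of 33084 identifiers. Genes were kept by filterByExpr (minimum count 10, minimum total 15) and tested with edgeR 4.0.16 (TMM, robust quasi-likelihood, no covariate), run in R 4.3.3, with DESeq2 1.42.0 and limma 3.58.1 as alternatives. Standard errors were derived from the F statistics. Log2 CPM used a prior count of 2. Named genes are the members, Hipk4, the 4 genes of smallest p per related list and the 5 profiles nearest to Dyrk1a; some of these are not reported here. Members, lists and tests were chosen with earlier results of these data known. Figures used matplotlib 3.10.9 in Python 3.11.15.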

Additional observations from a re-analysis of the deposited data

How the results depend on the processing

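The 95% intervals given hold the differences compatible with 3 libraries per genotype, and they are not limits of detection. No member passed the threshold in any of 18 alternative fits. Values near 0 changed sign. Dyrk1a was at 0.047 in limma-voom with sample weights, 0.013 with the GC content and length trend removed and 0.012 with that trend removed and the replicate block. Dyrk1b was at 0.0013 with DESeq2's size factors, 0.0013 in DESeq2, 0.00049 in limma-voom, 0.058 with sample weights, 0.0099 under the stricter filter and 0.044 with only replicates 1 and 2. Dyrk2 was at 0.0045 under the stricter filter, 0.0062 with only replicates 1 and 2, 0.031 with the trend removed and 0.029 with the trend removed and the replicate block. Dyrk3 was at 0.0026 under the stricter filter. Hipk3 was at 0.011 with the trend removed and 0.014 with the trend removed and the replicate block. The causes were not tested.

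Leaving out 1 library at a time gave -0.053 to 0.052 for Dyrk1a, -0.064 to 0.033 for Dyrk1b, -0.052 to 0.057 for Dyrk2, -0.060 to 0.038 for Dyrk3, -0.17 to -0.090 for Hipk1, -0.18 to 0.0035 for Hipk2 and -0.13 to 0.027 for Hipk3. The number of all genes at an unadjusted p under 0.05 ranged from 179 to 1060 when leaving out 1 library. It was 1904 with sample weights, 587 without a filter, 765 with the replicate block, 845 with a term for replicate 3, 1544 with only replicates 1 and 2 and 1052 with the trend removed and the replicate block. Genes called lower numbered 0 in all these fits. Genes called higher numbered 3 with only replicates 1 and 2, none of them a member: Pisd-ps1, Hist1h2ag and Tmem181b-ps, named after their values were seen. Whether reads shared with similar genes or pseudogenes had a part in these calls was not tested.

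The replicate numbers were not taken to pair the samples. Deviations from the group means correlated at 0.242, 0.0767 and 0.358 across genes for replicates 1, 2 and 3, and control replicate 2 correlated best with mutant replicate 1. With the replicate block Dyrk1a was at -0.018 and Hipk1 at -0.14. Using the longest transcript in place of the exon union changed the rank of 2 of the 8 genes by level, Dyrk1a and Hipk1. As TPM they averaged 69.0 and 70.3.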
